A study of Mus musculus with 6 samples.

Results

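Beta cells keep a small group of genes at low levels that most other tissues express, and these are often called disallowed genes. The 10 described here are Ldha, Slc16a1, Acot7, Cat, Mgst1, Pdgfra, Oat, Cxcl12, Tgm2 and Rest, chosen by name from work on such genes, and their rows were read from a table of 46959 gene symbols in 6 libraries of sorted mouse islet cells. In 3 of these genes, Acot7, Oat and Cat, transcripts were lowest in beta cells, intermediate in cells that carry both a beta-cell and a delta-cell label, and highest in delta cells. Rest followed the same order at under 1 RPKM. Only Acot7 and Oat passed the test between each pair of populations. Cat missed it between double-positive and delta cells (limma adjusted p = 0.16). Of the 13022 genes tested, 46.3% passed as higher in delta and 42.5% as higher in double-positive than in beta cells. As lower in double-positive than in delta cells 7.2% passed. How many genes share the full order, or pass between each pair of populations, was not counted. Ldha differed far more between the male and the female pool of mice than between cell types. Tgm2, Mgst1 and Cxcl12 were not lowest in beta cells, and Pdgfra was read at most once in a library.

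The mice were adult offspring that carried 3 transgenes in every group, mIns1-H2b-mCherry, Sst-cre and a floxed YFP allele. The first is a nuclear red reporter under an Ins1 promoter, which marks insulin-making cells, and the pair of others turns on YFP in cells that have used the somatostatin promoter and in their descendants. Each pool held the islets of 10 to 12 males or females, kept overnight in 5.5 mM glucose and 10% serum, then treated with 0.25% trypsin and sorted into beta cells (red only), delta cells (YFP) and double-positive cells, which the labels call delta transdifferentiated. Each of the 3 groups has 2 libraries, replicate 1 from a male pool and replicate 2 from a female pool, so sex and pool cannot be told apart, and p-values measure only the spread between these pools. RPKM is the number of reads per kilobase of gene and per M reads in the library, and the denominators recovered from the table were 10.9 to 21.6 M reads. The lineage label records past use of the somatostatin promoter and gives no time for any change of identity. The series text in 1 place gives alpha cells as the origin, whereas its title, the sample labels and the Sst driver point to delta cells, which is followed here.

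The labels were checked against marker genes. All 8 beta markers fell and all 5 delta markers rose in delta against beta cells, and Gcg, the glucagon gene that marks alpha cells, was at 14573 and 15846 RPKM in the delta libraries against 236 and 422 RPKM in the beta libraries. Ppy, which marks PP cells, was at 16735 and 15817 RPKM in the delta libraries against 522 and 330 RPKM in the beta libraries. Acinar transcripts from exocrine pancreas differed between the pools: in beta cells 9 markers summed to 8033 RPKM in the male library but to 306 RPKM in the female one, and Amy2a5 was listed at 0 in every library. Among macrophage genes Lyz2 was at 5.82 and 7.99 RPKM in beta cells and did not pass 0.145 RPKM elsewhere, whereas C1qa, the most abundant of them, was at 34.9 and 40.5 RPKM in beta, 29.4 and 32.6 RPKM in double-positive and 59.3 and 76.9 RPKM in delta libraries. Ins2, an insulin gene, held 34.8% to 41.3% of the summed RPKM in the beta libraries. It held 17.8% to 18.6% in the double-positive and 0.305% to 0.360% in the delta libraries. Sst, the somatostatin gene, was at 49770 and 58480 RPKM in the delta libraries against 71.1 and 86.8 RPKM in the beta libraries. RPKM is relative to library size, so abundant transcripts bear on the values of other genes in each population. The size of this effect was not tested.

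Insulin release is meant to follow blood glucose. In a beta cell, pyruvate made from glucose is burned in the mitochondria, so an enzyme that turns it into lactate (Ldha) or a carrier that lets blood pyruvate and lactate in (Slc16a1) would uncouple secretion from glucose, as seen when the carrier is active in beta cells during exercise. Other members act in acyl-CoA and amino acid turnover, in disposal of peroxide, in signalling between tissues, or in gene silencing. Delta cells secrete somatostatin, and are the neighbours against which the beta-cell level is set here.

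The start regions of 4 members are printed because these genes pair off in the values below: Ldha and Slc16a1 both stood higher in every male pool, and Acot7 and Oat both rose from beta to double-positive to delta cells. The Slc16a1 values rest on 6 to 37 reads a library, and the counting intervals of its pools overlap outside beta cells. Each sequence is the 250 bases before a RefSeq start on GRCm38.p6, read 5′ to 3′ on the strand of the gene. Ldha is at chr7:46845554-46845803 (plus strand), Slc16a1 at chr3:104638414-104638663 (plus), Acot7 at chr4:152185358-152185607 (plus) and Oat at chr7:132576399-132576648 (minus). Capitals mark matches to ACGTG on either strand, the core letters of the hypoxia response element, including those inside CACGTG, the palindromic E-box.
Ldha: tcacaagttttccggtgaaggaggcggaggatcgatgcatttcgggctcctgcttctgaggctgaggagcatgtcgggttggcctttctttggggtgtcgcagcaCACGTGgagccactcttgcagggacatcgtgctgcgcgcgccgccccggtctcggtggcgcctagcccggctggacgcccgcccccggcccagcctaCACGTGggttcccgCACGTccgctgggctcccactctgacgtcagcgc
Slc16a1: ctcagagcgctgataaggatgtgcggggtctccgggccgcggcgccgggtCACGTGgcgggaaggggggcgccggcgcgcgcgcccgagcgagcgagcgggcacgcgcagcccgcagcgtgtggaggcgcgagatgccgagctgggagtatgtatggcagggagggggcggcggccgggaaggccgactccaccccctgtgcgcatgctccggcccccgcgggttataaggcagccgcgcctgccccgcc
Acot7: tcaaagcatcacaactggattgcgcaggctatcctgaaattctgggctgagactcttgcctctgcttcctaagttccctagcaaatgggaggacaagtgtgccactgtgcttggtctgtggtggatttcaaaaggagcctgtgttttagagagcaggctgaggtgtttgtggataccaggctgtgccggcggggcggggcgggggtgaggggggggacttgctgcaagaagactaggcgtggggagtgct
Oat: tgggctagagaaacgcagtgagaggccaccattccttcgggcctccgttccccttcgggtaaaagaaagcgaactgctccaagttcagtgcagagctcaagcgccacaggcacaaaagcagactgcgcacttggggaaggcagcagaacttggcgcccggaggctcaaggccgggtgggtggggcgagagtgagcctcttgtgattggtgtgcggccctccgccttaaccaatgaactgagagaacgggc

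The Ldha window held 5 matches to ACGTG counted over both strands, and 2 of its sites were CACGTG. Slc16a1 had 1 CACGTG, which counts as 2 matches to ACGTG, 1 on each strand. RefSeq windows were found for 8 of the 10 genes (not for Tgm2 and Rest, and 2 windows each for Ldha and Mgst1), and no other member window held either motif. Of all 32851 windows of this length in the table, 16.6% held ACGTG and 6.02% held CACGTG. The GC box, GGGCGG, was in 6 of the 10 member windows against 32.7% of all windows, and CCAAT was in 2, those of Cat and Oat, against 33.8%. TATAAA was in none of the 10 against 12.4%, and TTCAGCACC, part of the element bound by REST, in none against 0.301%. TGACNNNGC, the antioxidant response core, was in 2 (Mgst1 and Slc16a1) against 10.2%, and GGACAG in 1 (Mgst1) against 18.7%. A match describes letters only, and binding was not measured.

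By mean RPKM in beta cells the order was Ldha, Cat, Tgm2, Oat, Mgst1, Slc16a1, Acot7, Cxcl12, Rest and Pdgfra. Of the neighbours in this order, Cat and Tgm2, Oat and Mgst1, and Rest and Pdgfra differed by more than the SD between pools of either gene, and the others did not. Only Ldha, Acot7, Cat, Oat and Tgm2 reached 1 RPKM in at least 2 of the 6 libraries, so 5 members were among the 13022 genes tested. Differences were tested with limma on log2(RPKM + 1), adjusted over those 13022 genes by Benjamini-Hochberg, at an adjusted p under 0.05. Such fold changes understate the change of low genes. The 5 low members are given by their reads, where 1 read is the value that the low RPKM steps imply, with exact Poisson intervals at 95% that cover counting error only.

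**Figure D1:**
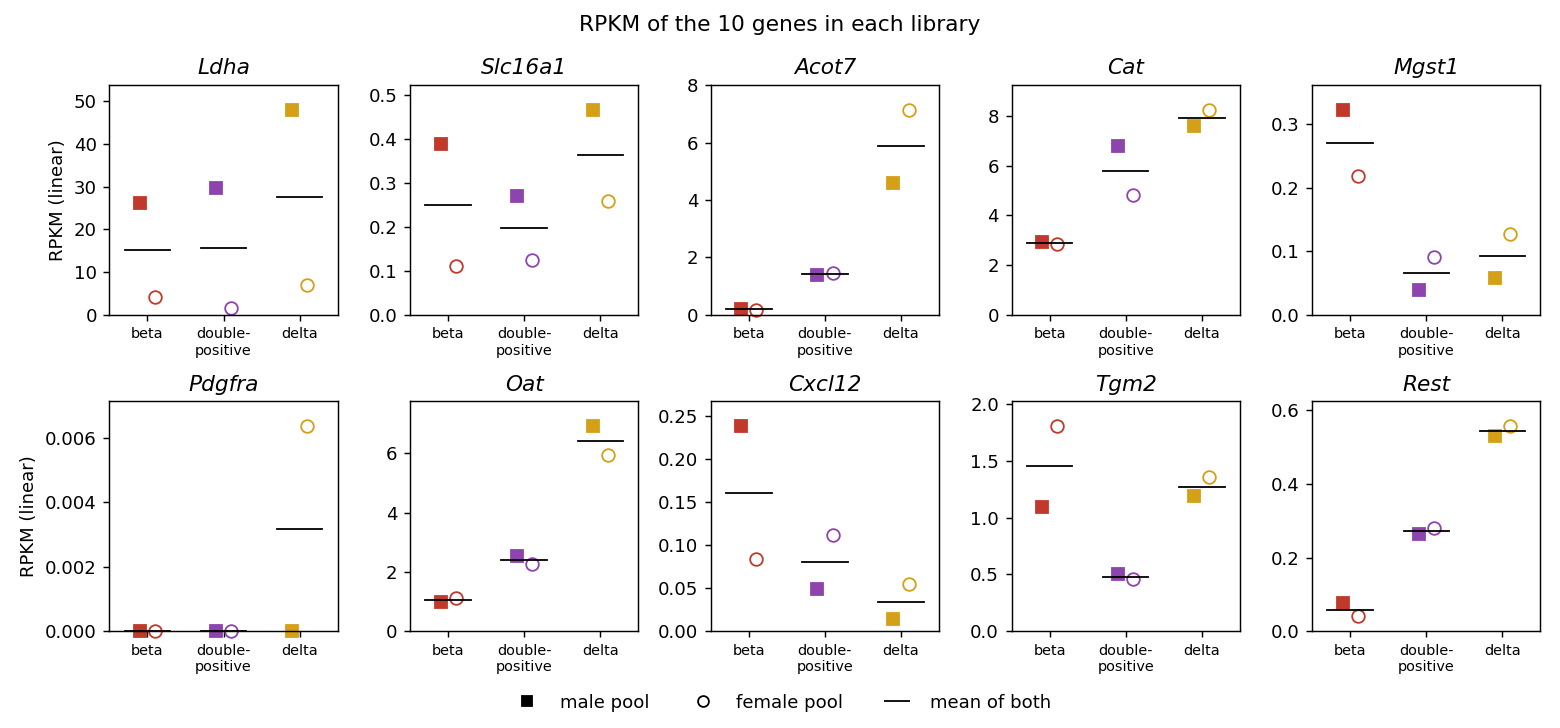
RPKM on a linear axis of the 10 genes in each of the 6 libraries, with filled squares for male pools, open circles for female pools and a bar at the mean of both. Acot7, Cat, Oat and Rest climb from beta to delta cells, Ldha splits by pool in every population, and Tgm2 is lowest in double-positive cells.

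Mean Acot7, Oat and Cat rose from beta to double-positive to delta cells. Acot7 and Oat passed the test in all 3 comparisons, and Cat did not pass between double-positive and delta cells. Acot7 is an acyl-CoA thioesterase best known from neurons, which splits long-chain acyl-CoA into fatty acid and coenzyme A. Its gene lies at chr4:152178134-152271855 on the plus strand (GRCm38, GENCODE M21), and the RefSeq start used above is inside that span. Acot7 stood at 0.218 and 0.184 RPKM in the male and female beta libraries, 1.39 and 1.47 RPKM in double-positive and 4.61 and 7.15 RPKM in delta libraries. All 3 populations were apart, with no overlap between any pair. How many of all genes are apart in this way was not counted, here or for any other member below. The beta values rest on 10 and 8 reads and the delta values on 166 and 238.

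Mean Acot7 was 0.201 ± 0.0242 RPKM (SD, n = 2) in beta, 1.43 ± 0.0556 in double-positive and 5.88 ± 1.80 in delta cells. The limma log2 fold change was 2.49 (SE 0.19, adjusted p = 1.10e-04) for delta against beta, and 1.02 (SE 0.19, adjusted p = 0.0050) for double-positive against beta. Against delta cells the double-positive cells were lower by -1.48 (SE 0.19, adjusted p = 0.0048). On the reads themselves, delta cells held 28.9 times the Acot7 rate of beta cells (95% interval 18.0 to 49.2), far more than the fitted fold change conveys for a gene this low in beta cells. Double-positive cells held 7.07 times the beta rate (4.17 to 12.6). Whether an intermediate value is a level shared by all sorted cells or a mix of high and low cells cannot be told apart in bulk libraries, and neither can fewer cells of a type and less RNA per cell. The sum of the 6 alpha markers followed the order of Acot7, Oat, Cat and Rest, at 461 to 644 RPKM in beta, 1800 to 2594 RPKM in double-positive and 15150 to 16521 RPKM in delta libraries, with none at 0. Ppy followed it too, at 522 and 330 RPKM in beta, 5852 and 5508 RPKM in double-positive and 16735 and 15817 RPKM in delta libraries. The part of alpha and PP transcripts in these 4 genes was not tested.

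Oat, ornithine aminotransferase, is a mitochondrial enzyme that links ornithine to glutamate and proline. It lies at chr7:132557478-132576398 on the minus strand. Oat was at 0.990 and 1.11 RPKM in beta, 2.55 and 2.26 RPKM in double-positive and 6.92 and 5.95 RPKM in delta libraries. Again no library of a population reached into the next. The log2 fold changes were 1.86 (SE 0.13, adjusted p = 8.14e-05) for delta against beta, 0.73 (SE 0.13, adjusted p = 0.0041) for double-positive against beta and -1.12 (SE 0.13, adjusted p = 0.0032) for double-positive against delta cells by limma. In mean RPKM, delta cells held 6.12 times and double-positive cells 2.29 times the beta level. Fgfr2 overlaps the Oat locus without sharing exonic bases and stood at 0.0945 RPKM or less in every library.

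Cat encodes catalase, the peroxisomal enzyme that breaks down hydrogen peroxide, and lies at chr2:103453849-103485160 on the minus strand. Its RPKM was 2.93 and 2.84 in beta, 6.78 and 4.81 in double-positive, and 7.58 and 8.25 in delta libraries. Beta cells were again lowest and the 3 groups did not overlap, but the male double-positive pool came close to the delta libraries. By limma Cat rose by 1.20 (SE 0.16, adjusted p = 9.55e-04) in delta and by 0.79 (SE 0.16, adjusted p = 0.0066) in double-positive cells against beta cells. The latter call ended when the libraries were rescaled by median-of-ratios factors, at 0.41 with adjusted p = 0.056. Between double-positive and delta cells the difference was -0.41 (95% interval -0.78 to -0.03) and missed the threshold at adjusted p = 0.16.

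Against beta cells, 4 of the 5 tested members were called in double-positive cells, 3 higher and 1 lower, when 51% of all 13022 genes were called, 42.5% higher and 8.46% lower. In delta against beta cells 3 members were called, all higher, against 57.9% of all genes, 46.3% higher. Between double-positive and delta cells 2 members were called, both lower, against 12.7% of all genes, 7.2% lower. More genes were called than not in both comparisons with beta cells, so 3 or 4 of 5 members is not read as a result about these genes. The members' median log2 fold change was 0.73 in double-positive and 1.20 in delta against beta cells, beside 0.32 and 0.36 over all tested genes, and -1.12 in double-positive against delta cells beside -0.03. Median-of-ratios scaling moved the all-gene medians to -0.08, -0.04 and -0.02, and the higher share of calls from 83.4% to 45.4% in double-positive and from 79.8% to 47.5% in delta against beta cells. With it, Acot7 (0.86 and 2.29), Oat (0.45 and 1.54) and, in delta cells, Cat (0.81) still passed.

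**Figure D2:**
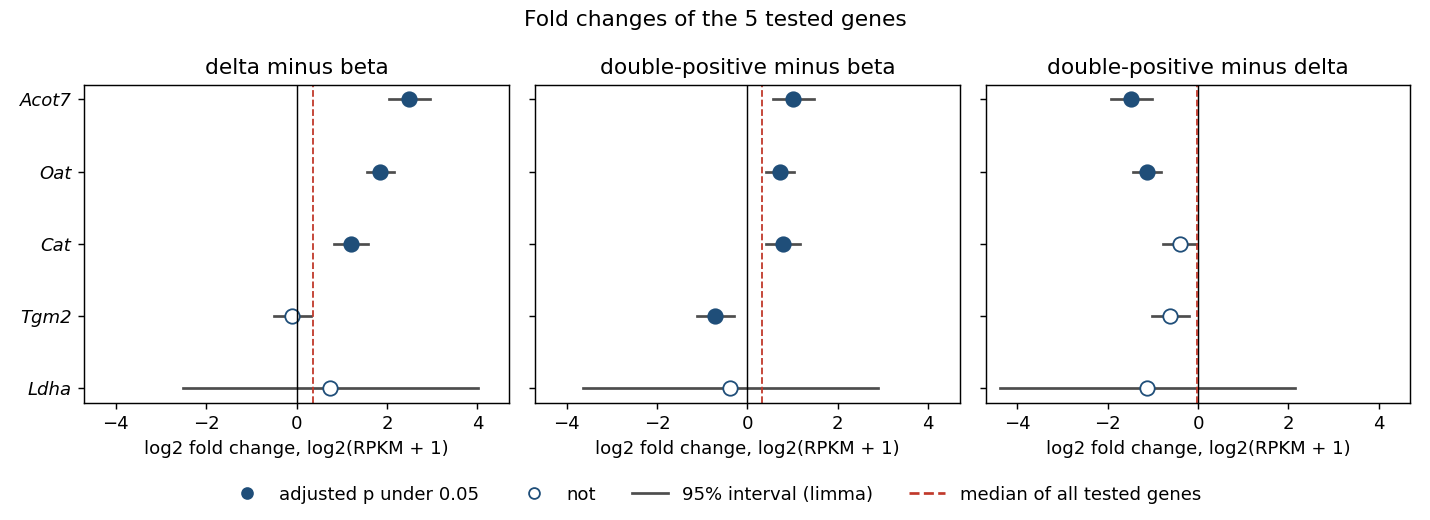
Log2 fold changes on log2(RPKM + 1) of the 5 tested genes in the 3 comparisons, with 95% limma intervals, filled where the adjusted p is under 0.05, and a dashed line at the median of all 13022 genes. Acot7 and Oat are clear of the median in each comparison, and the Ldha intervals span more than 6 log2 units.

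Set on a scale from 0% at the beta mean to 100% at the delta mean of log2(RPKM + 1), double-positive cells stood at 40.8% for Acot7, 39.4% for Oat, 66.1% for Cat and 48.8% for Rest. Over the 6025 genes that were higher in delta than in beta cells the median position was 84.1%, with a middle range (quartiles) of 60.8% to 108%. Acot7 and Oat were thus below the lower quartile, nearer to the beta level than most genes of that direction. Rest was below it as well, but it never reached 1 RPKM and is not among those genes. After median-of-ratios scaling Acot7, Oat and Rest stood at 37.7%, 29.1% and 45.3% and Cat at 51.1%. Over 3561 genes the median was then 77.3% and the lower quartile 52.6%. The added value of 1 moves genes under 1 RPKM most: with log2(RPKM + 0.1), a setting added after the positions were seen, Acot7 stood at 54.8%, Oat at 44.8%, Rest at 61.1% and Cat at 67.5%, beside a lower quartile of 65.6% over 6046 genes. These are descriptions, since all 3 groups enter each position.

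Other acyl-CoA thioesterases were read from a list of 12, of which 8 could be tested. In delta against beta cells 4 rose and 1 fell (median 0.42, all genes 0.36), in double-positive against beta cells 2 rose (median 0.30, all genes 0.32), and between double-positive and delta cells 1 fell (median -0.12). Scaling turned the first count to 3 higher and 3 lower, and the second to 1 higher and 2 lower. Acot1, a cytosolic relative, was at 0.0595 and 0 RPKM in beta, 0.870 and 0.883 RPKM in double-positive and 2.68 and 2.82 RPKM in delta libraries. Acot1 and Acot4 passed the filter through the delta libraries alone, so the counts above follow in part from the filter. No test of Acot1 is given, and its order is not read beside that of Acot7. Acot2, the mitochondrial form, rose by 0.99 (adjusted p = 0.0030) in delta against beta cells. Acot1 and Acot2 are near-identical in sequence, so how reads were split between them is uncertain.

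Around Oat, 8 of 11 genes of ornithine and proline metabolism were tested, and every one was called in delta against beta cells, 3 higher and 5 lower (median -0.44, all genes 0.36). In double-positive against beta cells 2 rose and 5 fell (median -0.40), and between double-positive and delta cells 2 were higher and 2 lower (median 0.04). After scaling 7 of the 8 were called in delta against beta cells, 2 higher and 5 lower (median -0.88), and 1 was higher and 6 lower in double-positive against beta cells (median -0.84). Arg1, the arginase that makes ornithine from arginine, stood at 1.19 and 0.861 RPKM in beta, 95.6 and 68.1 RPKM in double-positive and 280 and 244 RPKM in delta libraries, in the same order as Oat. Pycr1, which makes proline in mitochondria, ran the other way, at 23.9 and 19.8 RPKM in beta, 13.1 and 11.7 RPKM in double-positive and 5.75 and 5.36 RPKM in delta libraries. Its log2 fold change was -1.80 (adjusted p = 9.47e-05) in delta against beta cells. The list thus held an enzyme upstream of Oat that rose and a proline-making enzyme that fell.

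Around Cat, 13 of 16 genes for peroxide and membrane detoxification were tested. In delta against beta cells 5 rose and 2 fell (median 0.14, all genes 0.36), in double-positive against beta cells 2 rose and 3 fell (median -0.08), and 3 were lower in double-positive than in delta cells (median -0.27). Scaling changed the counts against beta cells to 3 higher and 6 lower in delta and to 1 higher and 7 lower in double-positive cells. Gpx3, a secreted glutathione peroxidase, was at 21.1 and 32.6 RPKM in beta, 305 and 268 RPKM in double-positive and 991 and 978 RPKM in delta libraries. It rose by 5.18 (adjusted p = 9.72e-06) in delta and by 3.39 (adjusted p = 1.53e-04) in double-positive against beta cells, a larger change than that of Cat.

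Mgst1, the microsomal glutathione transferase that detoxifies lipid peroxides in membranes, was instead highest in beta cells. It stood at 0.322 and 0.219 RPKM in beta, 0.0396 and 0.0911 RPKM in double-positive and 0.0586 and 0.127 RPKM in delta libraries. The beta libraries did not overlap the other 4, but all of these values are low: 14 and 9 reads, then 1 and 2, then 2 and 4. How many genes share such a gap was not counted. The rate in beta cells was 4.28 times that in double-positive cells (95% interval 1.29 to 22.2) and 2.98 times that in delta cells (1.18 to 8.94). Mgst1 was left out of the main test by the filter on low values. Without that filter, when 25.7% of 26144 genes were called, its limma log2 fold change in double-positive against beta cells was -0.25 with adjusted p = 0.0448, and with a pseudocount of 0.1 it was -1.17 with adjusted p = 0.064. The 8 macrophage markers summed to 82.9 to 100.4 RPKM in beta, 44.3 to 45.7 RPKM in double-positive and 73.4 to 88.0 RPKM in delta libraries, and Lyz2, Ptprc, Adgre1 and C1qc were at 0 in at least 1 library outside beta cells. Their part in the Mgst1 values was not tested.

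**Figure D3:**
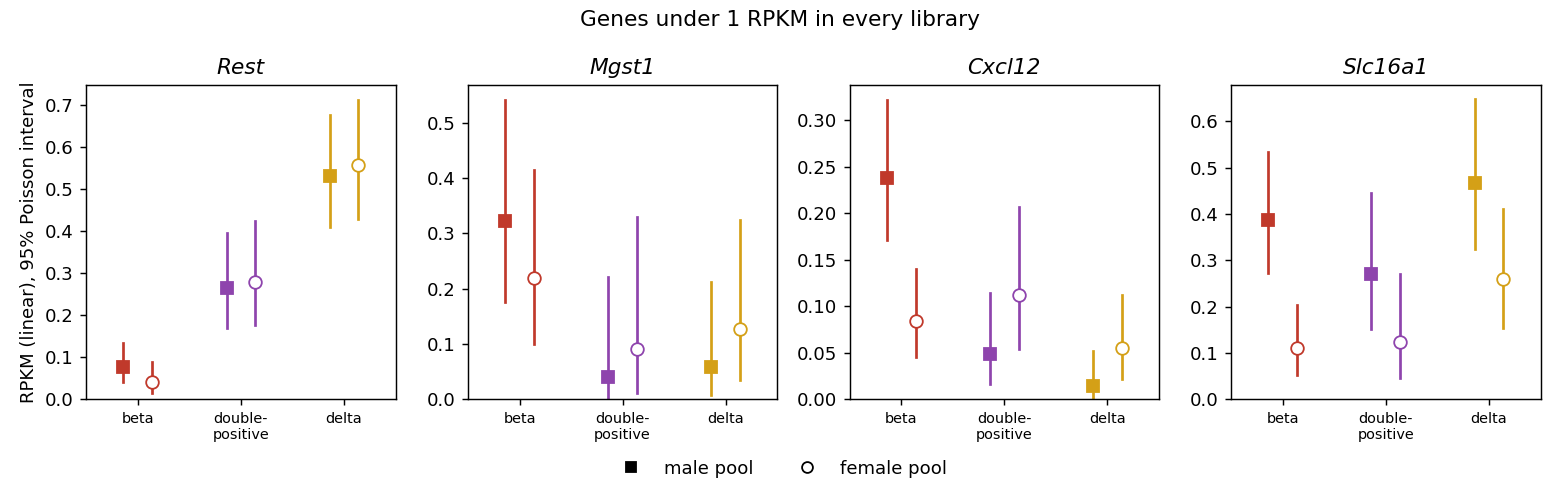
RPKM on linear axes of Rest, Mgst1, Cxcl12 and Slc16a1 in each library, with exact Poisson 95% intervals from the recovered reads. Rest has means of 0.0588, 0.272 and 0.543 RPKM, and its beta intervals lie below all others while those of double-positive and delta cells overlap slightly (up to 0.423 and down to 0.409 RPKM). For Mgst1, Cxcl12 and Slc16a1 each population has a library whose interval overlaps with that of another population.

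Rest, the repressor that silences neuronal genes outside neurons, lies at chr5:77265491-77286432 on the plus strand. It stood at 0.0770 and 0.0406 RPKM in beta, 0.265 and 0.279 RPKM in double-positive and 0.530 and 0.556 RPKM in delta libraries, from 12 and 6, 24 and 22, and 65 and 63 reads. Within each population the 2 pools lay closer to each other than to any other population. The rate in delta cells was 9.15 times the beta rate (95% interval 5.57 to 15.9), and that in double-positive cells 4.58 times (2.61 to 8.40). Double-positive cells held 0.501 of the delta rate (0.349 to 0.706).

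Rest never reached 1 RPKM and so was not in the main test. Without the filter, limma called Rest in delta against beta cells (0.54, adjusted p = 0.0031, when 30.4% of genes were called) and in double-positive against beta cells (0.27, adjusted p = 0.025). Against delta cells, where 4.41% of genes were called, it missed the threshold at adjusted p = 0.065. With a pseudocount of 0.1 (32.2%, 27.2% and 3.24% of genes called) these values were 2.03 (adjusted p = 0.0066), 1.24 (adjusted p = 0.033) and -0.79 (adjusted p = 0.26), so the same pair of calls was made at a larger fitted size.

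The partners of REST were all measured well above Rest itself. Of 9 corepressor genes, all tested, 6 rose in delta and 5 in double-positive against beta cells, with none lower (medians 0.38 and 0.38, all genes 0.36 and 0.32). Between double-positive and delta cells limma called 0 of the 9 (median -0.13). After scaling the counts against beta cells became 1 higher and 1 lower in delta and 1 higher and 2 lower in double-positive cells, so the common direction was lost. Rcor3, a CoREST subunit, stood at 1.70 and 2.23 RPKM in beta, 4.73 and 4.96 RPKM in double-positive and 4.10 and 3.68 RPKM in delta libraries, and rose by 0.98 (adjusted p = 0.0016) in double-positive against beta cells.

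Neuronal genes known to carry REST sites moved in both directions. Of 15 listed, 12 were tested: 5 rose and 4 fell in delta against beta cells (median 0.35), 4 rose and 3 fell in double-positive against beta cells (median 0.20), and 3 were higher and 2 lower in double-positive than in delta cells (median 0.14). After scaling the first count was 3 higher and 5 lower and the second 3 higher and 4 lower, and both medians turned negative (-0.11 and -0.27). Nefm, a neurofilament subunit, was at 3.10 and 2.81 RPKM in beta, 13.6 and 9.63 RPKM in double-positive and 32.4 and 26.8 RPKM in delta libraries, so it was highest where Rest was highest. Vgf, a secreted peptide precursor, fell by -1.79 (adjusted p = 1.44e-04) in delta and by -1.34 (adjusted p = 7.32e-04) in double-positive against beta cells. Gjd2, the gap junction protein of beta cells, stood at 82.3 and 97.2 RPKM in beta, 85.0 and 93.0 RPKM in double-positive and 25.6 and 28.0 RPKM in delta libraries. It was higher in double-positive than in delta cells by 1.70 (adjusted p = 8.48e-04).

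Ldha, the lactate dehydrogenase subunit that favours lactate formation, was high in every male library. Its gene lies at chr7:46841475-46855627 on the plus strand. Ldha stood at 26.2 and 4.12 RPKM in the male and female beta libraries, 29.6 and 1.69 RPKM in double-positive and 48.0 and 6.97 RPKM in delta libraries. All 3 male values were above all 3 female values, so the populations overlapped and the pools did not. The male to female ratio was 6.36 in beta, 17.5 in double-positive and 6.89 in delta cells.

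With the pools ignored, limma called Ldha in no comparison: the log2 fold changes were 0.75 (adjusted p = 0.66) for delta against beta, -0.38 (adjusted p = 0.83) for double-positive against beta and -1.12 (adjusted p = 0.67) for double-positive against delta cells, each with an SE of 1.37. With the pool as a block the SE fell to 0.25, and Ldha was called higher in delta than in beta cells (adjusted p = 0.037) and lower in double-positive than in delta cells (adjusted p = 0.027). The members called were then 4 of 5 in delta against beta cells, 3 of 5 in double-positive against delta cells and 4 of 5 in double-positive against beta cells, when 60.6%, 14.8% and 53.9% of all genes were called. Within the male pool delta cells held 1.83 times the beta level, and within the female pool 1.69 times. Double-positive cells held 0.616 of the delta level in males and 0.243 in females. Against beta cells they were at 1.13 in males and 0.411 in females, on opposite sides of equality.

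Between the pools themselves, with population as a term over the 6 libraries, Ldha was higher in males by 2.85 on the log2 scale (limma, SE 0.20, adjusted p = 0.0037), in 3 of 3 populations. This comparison was added after the Ldha values were seen. Of the 13022 genes 0.361% were called and 0.315% were higher in males, and Ldha was the only one of the 5 tested members among them. Ranked by the smallest of the 3 male-minus-female differences, Ldha (2.41) was in place 3, after the Y-linked Eif2s3y and Ddx3y. By the mean of the 3 differences it was in place 27, behind acinar genes such as Prss2, Clps and Cpa1. The other members, Acot7, Oat, Cat and Tgm2, differed between pools by -0.18, 0.08, 0.11 and -0.16, with adjusted p between 0.76 and 0.87. Within single populations Acot7 differed by -0.54 in delta, Tgm2 by -0.42 in beta and Cat by 0.42 in double-positive cells. The Ldha call ended when no filter on low values was applied (2.85, adjusted p = 0.35). It was kept at 2.51 to 3.06 when each library was left out, where 1 residual degree of freedom remains and the adjusted p ran from 1.44e-60 to 0.020.

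Acinar transcripts were also higher in the male pools, at 26.3 times the female sum in beta, 15.6 times in double-positive and 1.37 times (719 against 524 RPKM) in delta libraries. Their part in the Ldha difference was not tested. Culture, dissociation and sorting of the male and female pools cannot be told apart from sex. The listed Ldha copies Ldha-ps and Ldha-ps2 stood at 0.260 RPKM or less, so few reads were assigned to them.

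**Figure D4:**
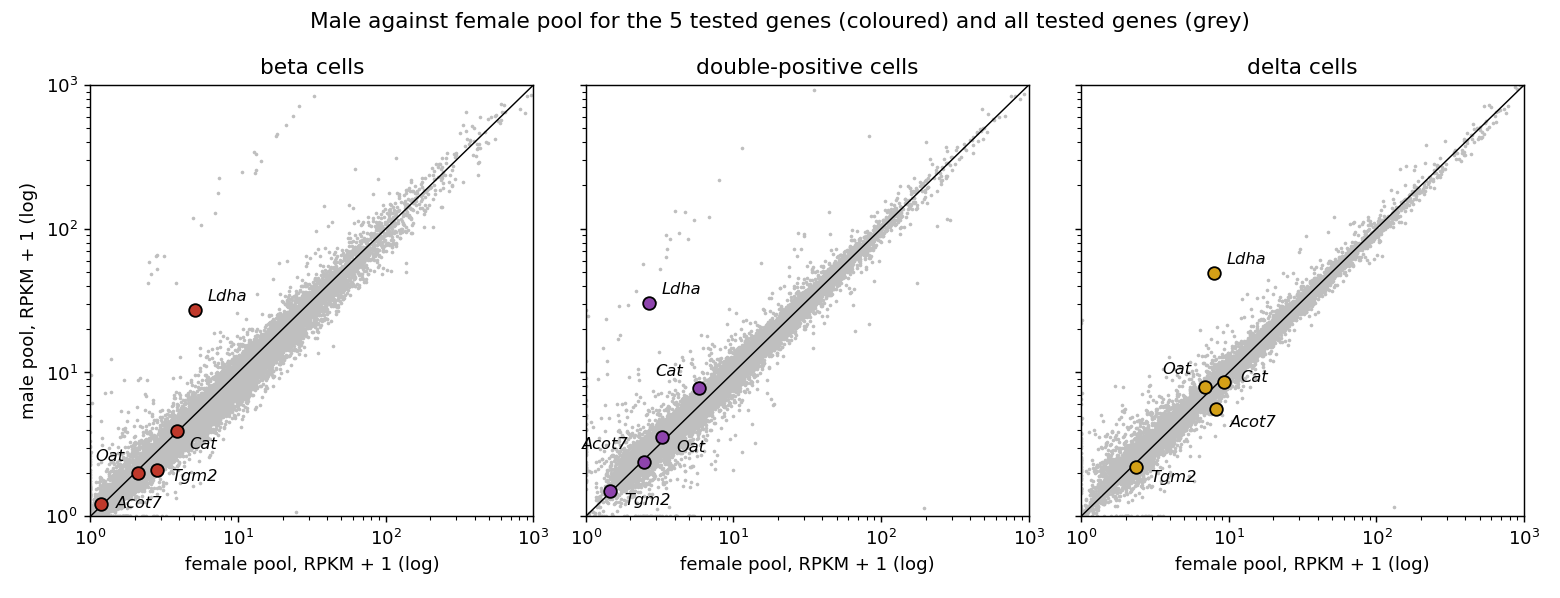
RPKM + 1 of the male against the female pool on log axes in beta, double-positive and delta cells, with all 13022 tested genes in grey and the 5 tested members in colour, and 14 to 21 genes per library beyond the upper axis limit of 1000. Ldha lies far above the diagonal in each panel (2.41 log2 units or more). Acot7, Oat, Cat and Tgm2 lie nearer to it, with Acot7 in delta cells the furthest off (-0.54).

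The genes whose values over the 6 libraries lay nearest to those of Ldha were Ak4, a mitochondrial adenylate kinase, and Mgarp, a mitochondrial protein, by Euclidean distance of centred log2(RPKM + 1). Ak4 stood at 8.16 and 1.17 RPKM in beta, 7.95 and 0.217 RPKM in double-positive and 7.05 and 0.686 RPKM in delta libraries (distance 1.28, r = 0.95 across the 6 libraries). Mgarp was likewise 1.09 to 1.88 RPKM in female and 7.83 to 9.65 RPKM in male libraries. Both were high in male and low in female libraries of every population. By the same measure Acot7 was nearest to Loxl1, a lysyl oxidase (distance 0.12), and to Ildr2 (0.23), Oat to Dlc1 (0.21) and Avpr1a, a vasopressin receptor (0.22), and Cat to Gemin6 (0.14) and Serping1 (0.18). These likenesses are over 6 libraries that share pools and carry no test.

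Ldhb, the subunit that favours the return of lactate to pyruvate, was close between pools. It stood at 4.43 and 4.27 RPKM in beta, 4.57 and 3.97 RPKM in double-positive and 2.29 and 2.88 RPKM in delta libraries, and fell by -0.58 (limma adjusted p = 0.0095) in delta against beta cells, a call that ended without delta replicate 1 (-0.46, adjusted p = 0.083). Ldha made up 85.5%, 86.6% and 95.4% of the RPKM of both genes in the male beta, double-positive and delta libraries and 49.1%, 29.9% and 70.7% in the female ones. In the female double-positive library Ldhb was thus the larger of both.

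Slc16a1, the carrier of lactate and pyruvate across the cell membrane (MCT1), lies at chr3:104638668-104658462 on the plus strand and was under 0.5 RPKM throughout. It stood at 0.388 and 0.110 RPKM in beta, 0.270 and 0.124 RPKM in double-positive and 0.466 and 0.259 RPKM in delta libraries, from 37 and 10, 15 and 6, and 35 and 18 reads. The male library was the higher in each population, by 3.51, 2.17 and 1.80 times. The Poisson intervals of male and female pools were apart in beta cells only. They overlapped in double-positive cells (0.151 to 0.446 and 0.0456 to 0.271 RPKM) and in delta cells (0.325 to 0.648 and 0.154 to 0.410 RPKM). Between populations, delta cells held 1.45 times the beta rate (95% interval 0.961 to 2.20) and double-positive cells 0.801 of it (0.455 to 1.37), so neither difference exceeded counting error. Double-positive cells held 0.552 of the delta rate (0.316 to 0.931). Without the filter limma called Slc16a1 in no comparison (adjusted p 0.54 to 0.84).

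**Figure D5:**
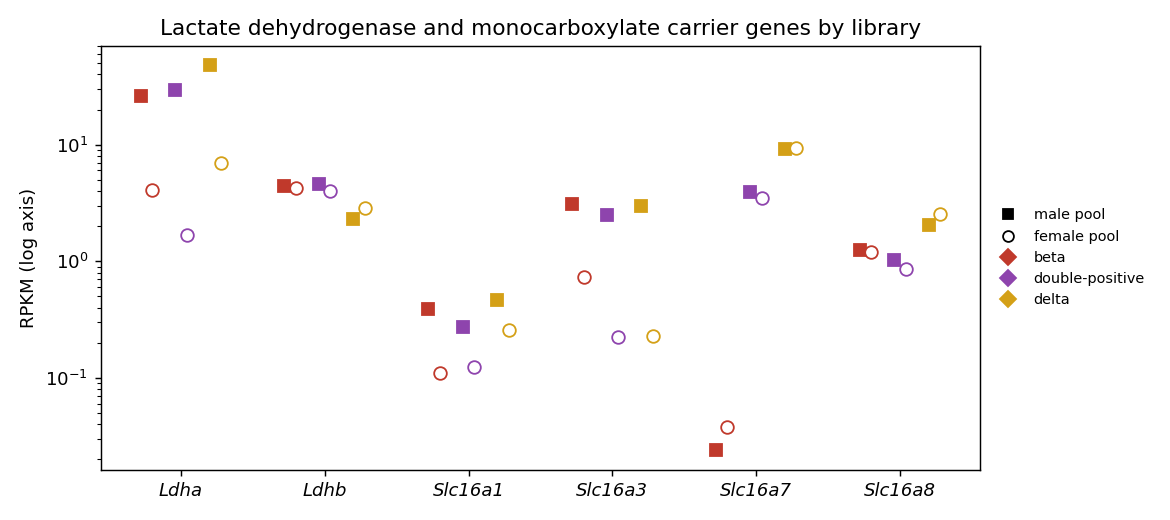
RPKM on a log axis of the genes for lactate dehydrogenase subunits (Ldha, Ldhb) and monocarboxylate carriers (Slc16a1, Slc16a3, Slc16a7, Slc16a8) in the 6 libraries. Ldha and Slc16a3 separate by pool, Slc16a7 by population, from 0.0238 RPKM in beta to 9.36 RPKM in delta cells.

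Among other genes for lactate and pyruvate handling, 9 of 10 were tested. In delta against beta cells 2 rose and 1 fell (median 0.03, all genes 0.36), in double-positive against beta cells 1 rose (median 0.06), and 1 was higher and 2 lower in double-positive than in delta cells (median -0.09). Slc16a7 (MCT2), a carrier with high affinity for pyruvate, was at 0.0238 and 0.0377 RPKM in beta, 3.96 and 3.49 RPKM in double-positive and 9.23 and 9.36 RPKM in delta libraries. It rose by 3.32 (adjusted p = 8.13e-06) in delta and by 2.19 (adjusted p = 1.23e-04) in double-positive against beta cells, so a carrier gene with a wide difference between populations was Slc16a7, not Slc16a1. Slc16a3 (MCT4) was named after its values were seen, so no test of its pool difference is given. It stood at 3.11 and 0.726 RPKM in beta, 2.49 and 0.224 RPKM in double-positive and 2.96 and 0.228 RPKM in delta libraries. Like Ldha it was high in male pools, by 1.48 log2 units. Scaling changed the counts against beta cells to 1 higher and 4 lower in delta and 1 higher and 3 lower in double-positive cells.

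Tgm2, a transglutaminase that cross-links proteins, was lowest in double-positive cells. The gene lies at chr2:158116402-158146436 on the minus strand. It stood at 1.10 and 1.80 RPKM in beta, 0.502 and 0.458 RPKM in double-positive and 1.19 and 1.36 RPKM in delta libraries, from 109 and 170, 29 and 23, and 93 and 98 reads. Beta and delta libraries overlapped, and both double-positive libraries were below all of them. How many tested genes share such a gap was not counted. By limma Tgm2 fell by -0.71 (SE 0.17, adjusted p = 0.0137) in double-positive against beta cells. That call ended without beta replicate 2 (adjusted p = 0.066) and without double-positive replicate 1 (just above the threshold) or 2 (0.051). Against delta cells the difference was -0.62 (95% interval -1.03 to -0.21, adjusted p = 0.066), which passed only without beta replicate 1 (adjusted p = 0.0487).

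In read rates, Tgm2 in double-positive cells was 0.334 of the beta rate (95% interval 0.244 to 0.451) and 0.379 of the delta rate (0.274 to 0.518). Between delta and beta cells the difference was -0.09 (95% interval -0.50 to 0.32, adjusted p = 0.66). Rprd1b, on the opposite strand, shares 370 exonic bases with Tgm2 and stood at 12.2 to 17.2 RPKM. The labels do not state counting by strand, so reads of the pair may not be told apart, and Rprd1b was lowest in the double-positive libraries too (12.7 and 12.2 RPKM, against 13.3 RPKM or more in the other 4). None of the 7 other transglutaminase genes listed reached the filter, so Tgm2 was the only family member that could be tested.

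Cxcl12, the chemokine that draws cells bearing Cxcr4, was under 0.25 RPKM throughout. It stood at 0.238 and 0.0837 RPKM in beta, 0.0488 and 0.112 RPKM in double-positive and 0.0144 and 0.0546 RPKM in delta libraries, from 42 and 14, 5 and 10, and 2 and 7 reads. Beta and double-positive libraries overlapped, and both delta libraries were below both beta libraries. The beta rate was 4.83 times the delta rate (95% interval 2.37 to 11.1) and 2.08 times the double-positive rate (1.16 to 3.96), and both rest largely on the male beta library: in the female pool delta cells held 0.652 and double-positive cells 1.34 of the beta value. Without the filter limma called Cxcl12 in no comparison (adjusted p 0.18 to 0.71).

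Endothelial cells are a known source of Cxcl12, and their markers did not share an order. Plvap, Cdh5 and Kdr were highest in that same male beta library, at 1.77, 0.919 and 0.637 RPKM. The other 5 libraries held at most 0.546, 0.208 and 0.195 RPKM of them. Emcn, Flt1 and Pecam1 were highest there too, at 0.223, 0.148 and 0.484 RPKM against at most 0.0707, 0.0520 and 0.451 RPKM elsewhere. Tek was highest in the male double-positive library, at 0.119 RPKM. Esam was at 3.07 and 2.64 RPKM in beta, 4.26 and 4.35 RPKM in double-positive and 4.83 and 5.49 RPKM in delta libraries, and Egfl7 was also highest in the delta libraries, at 1.30 and 1.62 RPKM against 0.829 and 0.410 RPKM in beta. Esam and Egfl7, the 2 that were tested, rose in delta against beta cells, and neither was called after scaling. The 9 endothelial markers together summed to 4.10 to 8.16 RPKM in beta, 5.43 to 6.78 RPKM in double-positive and 6.83 to 8.50 RPKM in delta libraries, with Esam the highest, and Emcn alone was at 0, in the male delta library. Their part in the Cxcl12 values was not tested. Of its receptor and protease genes, Cxcr4 stood at 1.82 and 2.73 RPKM in beta, 0.177 and 0.710 RPKM in double-positive and 0.130 and 0.106 RPKM in delta libraries. Cxcr4 passed the filter through the beta libraries alone, so no test of it is given. Of 6 macrophage markers tested, 5 fell and C1qa rose in delta against beta cells, but 4 of those that fell (Lyz2, Csf1r, C1qb and C1qc) had likewise passed through the beta libraries alone. After scaling 6 of 7 fell and none rose. The part of macrophage transcripts in the Cxcr4 values was not tested. Dpp4, which cleaves Cxcl12, rose by 0.91 (adjusted p = 0.0033) in delta and by 0.96 (adjusted p = 0.0035) in double-positive against beta cells. Ackr3 did not reach the filter.

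Pdgfra, the receptor for platelet-derived growth factor on mesenchymal cells, was at 0 reads in 5 of 6 libraries and at 1 read (0.00636 RPKM) in the female delta library. The 3-read limit that a count of 0 allows was 0.0139 and 0.0146 RPKM in beta, 0.0239 and 0.0275 RPKM in double-positive and 0.0176 RPKM in the male delta library, so no difference was detectable at this depth. The 9 mesenchymal markers were low as well: their sum was 0.326 to 0.396 RPKM in beta and double-positive and 0.823 to 1.04 RPKM in delta libraries, Col3a1, Dcn, Lum, Acta2, Thy1 and Pdgfrb were at 0 in at least 1 library, and none passed the filter. Of 5 other PDGF ligand and receptor genes 2 were tested, and 1 of these, Pdgfb, was called in delta against beta cells (0.33, limma adjusted p = 0.0485), a call that ended with scaling (-0.049, adjusted p = 0.71).

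A further 15 genes proposed by others as low in beta cells were read the same way, and 6 passed the filter. Of these 5 rose and 1 fell in delta against beta cells, 1 rose in double-positive against beta cells, and 3 were lower in double-positive than in delta cells. Among the 6, Hk1, Itih5, Smad3 and Zfp36l1 passed the filter through the delta libraries alone, so the filter itself bears on these counts and nothing is read from them. Itih5, a matrix-binding protein gene, stood at 0 and 0.0186 RPKM in beta, 0.424 and 0.615 RPKM in double-positive and 1.04 and 1.27 RPKM in delta libraries. After scaling only 3 of the 15 passed the filter, with 2 higher and 1 lower in delta against beta cells.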

How the data were processed

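Polyadenylated RNA of 6 sorted libraries was read from the table the authors deposited, 1 RPKM value per gene symbol and library. Per the submitters' processing notes, STAR 2.5, featureCounts and edgeR 3.14.0 were used on GRCm38.p4. Settings and strand are not given in the sources used here. Values are relative to library size, so the share taken by abundant hormone transcripts bears on other genes, to an extent that was not tested.

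The 27 symbols that had become dates were dropped. The test took genes with 1 RPKM or more in 2 libraries, log2(RPKM + 1) was formed, and limma 3.58.1 (limma-trend, R 4.3.3, 2-sided) was fitted over the 6 libraries without a block. The code was tested on simulated data. Reads were recovered from RPKM and GENCODE M21 exon lengths, and came out whole (within 0.01 read) for 8 members. Those of Ldha and Oat are approximate, since their lengths differ. Of values under 50 reads, 83.4% to 86.4% came out whole. Promoter letters are from RefSeq.

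The series text places the populations in the same islets, so pools pair the libraries, and deviations from group means correlated at 0.24 to 0.47 over the tested genes. The members and lists were chosen with earlier results of these data known. Named genes of other lists are from the 3 largest changes past the threshold in a comparison, and the 2 genes nearest to each member with a range of 1 log2 unit or more. Other pseudocounts, filters, scaling, a block and left-out libraries were tried.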

Additional observations from a re-analysis of the deposited data

Results flagged for a closer look

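For 4 genes the difference between populations ran one way in the male pool and the other way in the female pool, with 1 library each, so the difference between pools was not tested. Cxcl12 in double-positive cells was at 0.205 of the beta value in males and 1.34 in females. Ldha in double-positive cells was at 1.13 of the beta value in males and 0.411 in females. Slc16a1 in double-positive cells was at 0.698 of the beta value in males and 1.13 in females, from 6 to 37 reads a library. Tgm2 in delta cells was at 1.08 of the beta value in males and 0.752 in females.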

How the results depend on the processing

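The number of tested members called stayed within 1.5 times of the main 4, 2 and 3 (double-positive against beta, double-positive against delta, delta against beta) in every alternative run, with pseudocounts of 0.1 and 0.5, no filter, a 2 RPKM filter, scaling, a block and left-out libraries. Acot7 and Oat kept all 3 calls throughout. With the pool as a replicate block, the pairing that the series text gives, the counts of members were 4, 3 and 4, the gain being Ldha, and 7022, 1925 and 7890 of all genes were called against 6642, 1657 and 7546. It changed no other call of a member.

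With 1 library left out, all genes called ranged from 4120 (without double-positive replicate 1) to 7047 in double-positive against beta cells and from 4893 (without delta replicate 1) to 7769 in delta against beta cells. Between double-positive and delta cells the range was 502 to 2075, with 781 and 669 without double-positive replicate 1 and 2, and 726 and 502 without delta replicate 1 and 2. The count was 846 with no filter and log2(RPKM + 0.1), a setting chosen after seeing the data. The cause was not tested beyond the smaller number of samples.

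Ldha without the block reversed when libraries were left out: in double-positive against beta cells (-2.13 to 1.37) to 0.83 without beta replicate 1 and 1.37 without double-positive replicate 2, in double-positive against delta cells (-2.88 to 0.63) to 0.63 without double-positive replicate 2 and 0.19 without delta replicate 1, and in delta against beta cells (-0.56 to 2.06) to -0.46 without beta replicate 2 and -0.56 without delta replicate 1. Leaving out a library then leaves a population with 1 pool. Tgm2 in delta against beta cells turned to 0.12 without beta replicate 2 (range -0.30 to 0.12). Pdgfb in delta against beta cells turned to -0.049 after scaling. Cat between male and female pools turned to -0.039 without either double-positive library (range -0.039 to 0.23). Of 42 named results of other lists, 12 lost their call or direction under some alternative, 6 of them under scaling. Members under 1 RPKM rest on 0 to 65 reads a library, and 2 pools a population limit every comparison.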
